A study of Mus musculus with 2 samples.

Results

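The complement and clotting genes are 42 named genes whose products circulate in plasma or act beside it: 21 of the clotting system, 14 of complement activation and 7 of terminal complement. They were taken by gene symbol from count tables of 22609 symbols, and all 42 were found. Liver RNA was sequenced in 2 libraries, 1 from mice labelled as carrying a whole-body Lrg1 knockout and 1 from C57BL/6J wild-type mice. Both groups were male, of strain C57BL/6, and ate a high-fat diet (45% of its calories as fat) for 16 weeks, begun at 8 weeks of age. The study asked how lack of Lrg1, a secreted glycoprotein, bears on the genes that liver expresses. The labels do not say how many mice went into a library, whether the groups were littermates, or at what hour tissue was taken. Each group has 1 library, which allows no replicate check and no test, so each difference below is one between these libraries, and a difference between genotypes cannot be told apart from one between mice or preparations.

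Hepatocytes make most clotting and complement proteins and secrete them into blood as inactive precursors. Clotting runs as a chain of proteases that ends in thrombin, which turns fibrinogen into fibrin, while protein C, protein S and plasmin hold clot growth in check or dissolve the clot. Complement starts from C1q bound to antibody, from mannose-binding lectins bound to sugars, or from C3 itself, and all routes cleave C3 and then C5. The terminal components C5b, C6, C7, C8 and C9 then assemble into the membrane attack complex, a pore in the target membrane. Some members have other sources: C1q and properdin come mainly from macrophages, and factor VIII, von Willebrand factor and thrombomodulin from endothelium. In bulk tissue, fewer cells of a type and less RNA per cell cannot be told apart.

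The library labelled Lrg1 knockout held 18738397 reads in genes and the wild-type library 23311906. Levels are given as CPM, reads scaled to library size after TMM scaling (a scaling that sets the bulk of genes equal between libraries), and 1 read was worth 0.0519 CPM in the library labelled knockout and 0.0441 CPM in wild type. Lrg1, the targeted gene, had 17572 reads in the library labelled knockout against 26958 in wild type, 911.2 against 1190 CPM. The counts do not show which part of the gene these reads cover, so the genotype label could not be checked from them. Hepatocyte markers were abundant in both libraries, with a summed level over 12 genes of 108370 CPM in the library labelled knockout against 124847 CPM in wild type. Alb made up most of that sum, at 64406 against 79170 CPM, and of the 12 genes 9 were lower and 3 higher in the library labelled knockout. All intervals below are exact 95% intervals for counting error only, unless named otherwise. Because the protocol names no molecular identifiers, reads may be PCR copies of each other and the true counting error may be larger.

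The promoters of 4 membrane attack genes are shown because these genes had the highest ratios among terminal members, those of the fibrinogen chains because their products are assembled in equal numbers, and those of the mannose-binding lectins because their genes went opposite ways. Each is the 250 bases before the RefSeq start on GRCm38.p6, 5′ to 3′ along the gene. Capitals in the first 7 mark matches, on either strand, to GTTAAT (the core of sites for the hepatocyte factor HNF1), TTGCNNAA (C/EBP factors), TTCNNNGAA (STAT factors) or TTATGNAA (the D-box of DBP and its relatives). In the Mbl1 and Mbl2 promoters, which hold none of these, capitals mark the longest run of bases that both share, 13 bases.
C8b (chr4:104766067-104766316, plus strand): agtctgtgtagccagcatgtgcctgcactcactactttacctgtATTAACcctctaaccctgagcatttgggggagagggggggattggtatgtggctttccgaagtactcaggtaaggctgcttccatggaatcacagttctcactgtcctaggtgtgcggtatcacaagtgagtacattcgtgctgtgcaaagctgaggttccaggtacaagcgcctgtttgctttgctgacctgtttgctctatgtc
C8a (chr4:104876399-104876648, minus strand): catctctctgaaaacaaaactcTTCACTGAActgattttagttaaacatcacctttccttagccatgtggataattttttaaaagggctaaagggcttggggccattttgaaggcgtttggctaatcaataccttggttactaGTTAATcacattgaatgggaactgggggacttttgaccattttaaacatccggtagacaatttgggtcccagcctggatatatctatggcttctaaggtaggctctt
C9 (chr15:6445096-6445345, plus strand): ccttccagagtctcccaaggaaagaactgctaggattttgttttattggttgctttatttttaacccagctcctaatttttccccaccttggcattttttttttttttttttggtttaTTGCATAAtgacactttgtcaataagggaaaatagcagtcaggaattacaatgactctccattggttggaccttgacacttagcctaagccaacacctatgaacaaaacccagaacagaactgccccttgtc
C6 (chr15:4726960-4727209, plus strand): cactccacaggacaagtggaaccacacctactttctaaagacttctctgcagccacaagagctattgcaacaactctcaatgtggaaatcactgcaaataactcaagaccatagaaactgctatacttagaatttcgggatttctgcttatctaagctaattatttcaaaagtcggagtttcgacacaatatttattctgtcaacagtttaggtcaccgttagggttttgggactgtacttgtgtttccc
Fga (chr3:83025903-83026152, plus strand): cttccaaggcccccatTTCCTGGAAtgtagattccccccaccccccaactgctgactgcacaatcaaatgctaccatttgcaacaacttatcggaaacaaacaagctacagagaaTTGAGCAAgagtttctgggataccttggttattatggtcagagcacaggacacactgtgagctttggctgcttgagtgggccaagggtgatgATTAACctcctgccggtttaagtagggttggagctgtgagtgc
Fgb (chr3:83049864-83050113, minus strand): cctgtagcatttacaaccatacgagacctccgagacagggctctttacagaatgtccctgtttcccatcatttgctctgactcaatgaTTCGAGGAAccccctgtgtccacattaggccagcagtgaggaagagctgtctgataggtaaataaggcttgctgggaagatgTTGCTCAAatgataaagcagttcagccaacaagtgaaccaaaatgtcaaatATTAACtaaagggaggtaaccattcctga
Fgg (chr3:83007474-83007723, plus strand): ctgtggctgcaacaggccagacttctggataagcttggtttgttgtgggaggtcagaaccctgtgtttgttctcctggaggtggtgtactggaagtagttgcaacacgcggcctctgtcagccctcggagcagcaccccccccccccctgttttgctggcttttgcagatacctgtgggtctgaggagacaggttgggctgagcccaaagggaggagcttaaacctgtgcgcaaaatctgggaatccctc
Mbl1 (chr14:41151206-41151455, plus strand): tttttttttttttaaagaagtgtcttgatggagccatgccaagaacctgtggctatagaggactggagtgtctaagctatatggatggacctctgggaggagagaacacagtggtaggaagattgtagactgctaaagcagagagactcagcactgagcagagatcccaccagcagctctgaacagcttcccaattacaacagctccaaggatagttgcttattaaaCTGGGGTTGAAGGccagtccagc
Mbl2 (chr19:30232678-30232927, plus strand): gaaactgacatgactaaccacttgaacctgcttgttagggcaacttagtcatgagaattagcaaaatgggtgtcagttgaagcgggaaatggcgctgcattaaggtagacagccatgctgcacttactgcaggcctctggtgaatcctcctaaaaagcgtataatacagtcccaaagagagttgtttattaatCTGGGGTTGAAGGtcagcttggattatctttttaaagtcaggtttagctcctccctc

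The promoter table held 31 of the 42 members. GTTAAT was found in the 300 bases around the start (250 before and 50 after) of 11 of these 31 genes, and in 8.24% of all 27025 genes in the table. TTGCNNAA was found in 8 of 31, against 12.2% of all genes, TTCNNNGAA in 7 of 31, against 9.55%, and TTATGNAA in 2 of 31, against 3.99%. The letters CAAAGTCCA, a form of the site of HNF4, were found in 0 of 31 members and in 0.555% of all genes. Promoters of Fga and Fgb each held GTTAAT, TTGCNNAA and TTCNNNGAA, and that of Fgg held none of the 5. Promoters of C8b and C8a held GTTAAT, and that of C8a also TTCNNNGAA. In C9 the same 8 letters matched TTGCNNAA and TTATGNAA, and C6 had no match. These matches describe letters and not bound sites.

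Differences between the libraries were small for most members, and they ran in different directions in the 3 functional groups. In the library labelled Lrg1 knockout, complement activation genes were mostly lower, membrane attack genes mostly higher, and clotting genes close to level. All 42 members had at least 50 reads summed over both libraries and counted as measured. Of them, 0 reached 2-fold higher and 0 reached 2-fold lower, against 1.71% and 2.49% of 11411 measured genes. Genes with few reads scatter more by counting alone. Among the 9343 genes with at least 200 reads, 101 were 2-fold higher and 166 were 2-fold lower. At 1.5-fold, 1 member was higher (C8b) and 0 were lower, against 5.89% higher and 6.91% lower of measured genes. By any size, 13 members were higher and 29 lower, where 48.4% of measured genes were higher and 51.6% lower. The median log2 ratio (library labelled knockout over wild type) was -0.10 over the 42 members, beside -0.012 over all measured genes.

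**Figure D1:**
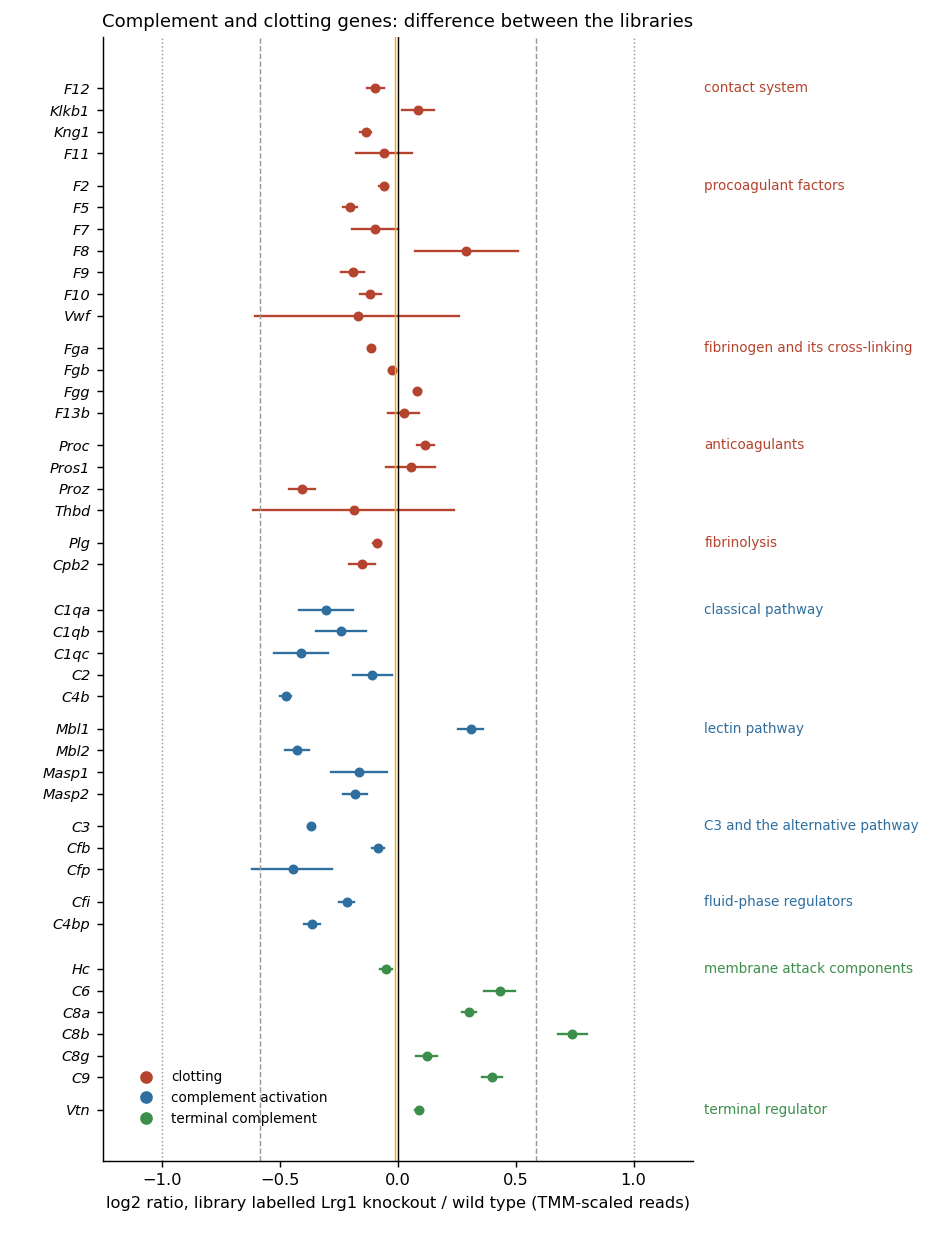
Log2 ratio of TMM-scaled reads, library labelled Lrg1 knockout over wild type, for each of the 42 members by role, with exact 95% intervals for counting error as bars; the black line marks 0, the orange line the median of all measured genes (-0.012), dashed lines 1.5-fold and dotted lines 2-fold. Complement activation genes lie left of 0 except Mbl1, 5 of 6 membrane attack components lie right of it, and C8b alone passes 1.5-fold.

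The choice of scaling bears on values this small. Scaling by total count raised every log2 ratio by about 0.083 and left 25 members lower and 17 higher, while 40.2% of measured genes were then lower. F2, F11, Fgb and Hc, all near level, were lower under TMM and higher under total count. Among all measured genes 1.5-fold apart, 672 were higher and 788 lower under TMM, against 884 and 628 under total count. The order of the groups does not depend on scaling, which shifts all genes alike. Relative to the median of all measured genes, clotting members stood at -0.083, complement activation members at -0.26 and terminal members at 0.31 on the log2 scale.

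**Figure D2:**
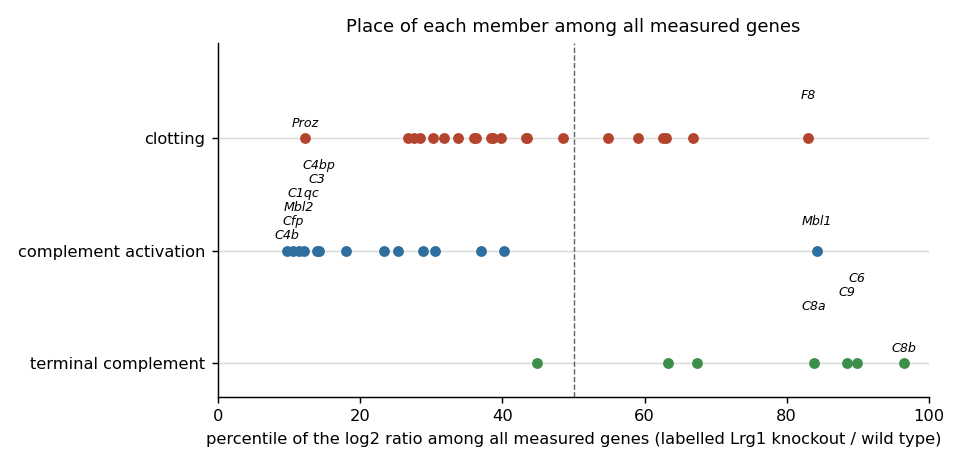
Percentile of each member's log2 ratio (library labelled Lrg1 knockout over wild type) among 11411 measured genes, 1 row per group, with 50 as the dashed line; names are given below percentile 16 and above percentile 80. Members of complement activation run from 9.63 (C4b) to 40.2 (Cfb) apart from Mbl1 at 84.2, and terminal members from 44.9 (Hc) to 96.5 (C8b).

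Terminal complement stood highest. Of its 7 members, 6 had higher levels in the library labelled knockout and 1, Hc, was near level, with a median log2 ratio of 0.30. This holds for the members only: the 3 further terminal genes that were listed were all lower, with a median log2 ratio of -0.17. C8b, the beta chain that binds C8 to C5b-7, had 4991 reads in the library labelled knockout against 3510 in wild type. That is 259 against 155 CPM, a fold of 1.67 (1.60 to 1.74), the highest of the 42 members and at the 96.5 percentile of measured genes. C6, which joins C5b to start the complex, had 4104 against 3572 reads, 213 against 158 CPM and 1.35-fold (1.29 to 1.41).

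C9, whose copies line the pore, had 9155 reads in the library labelled knockout against 8159 in wild type, 475 against 360.2 CPM (1.32-fold, 1.28 to 1.36). C8a, the chain of C8 that enters the membrane, had 18618 against 17734 reads, 965 against 783 CPM (1.23-fold, 1.21 to 1.26). These 4 genes were higher by more than their counting intervals under each scaling tried. C8g, the lipocalin-like chain of C8, was at 401 against 369 CPM (1.09-fold, 1.05 to 1.12). Vtn, vitronectin, which keeps the forming complex off host membranes, was at 2303 against 2165 CPM (1.06-fold, 1.05 to 1.08). Hc, which encodes C5, the start of the terminal route, was at 1193 against 1234 CPM, 0.966-fold (0.950 to 0.983), and its direction turned under total count scaling.

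Ratios to Hc taken inside a library are free of scaling; since each is the fold of a member divided by that of Hc, their order is that of the folds above and adds no second measure. For each read of Hc there were 0.217 reads of C8b in the library labelled knockout against 0.126 in wild type, a change of 1.73-fold (exact conditional interval 1.65 to 1.81). The same ratio changed 1.40-fold for C6 (1.33 to 1.47), 1.36-fold for C9 (1.32 to 1.41), 1.28-fold for C8a (1.24 to 1.31) and 1.13-fold for C8g (1.09 to 1.17). Within the C8 complex, C8b made up 15.9% of the 3 chains' reads in the library labelled knockout (15.5% to 16.3%) against 11.9% in wild type (11.5% to 12.2%). Per length of exons, C8b held 16.0% of the complex's transcripts against 11.6%, C8a 41.8% against 41.2%, and C8g 42.3% against 47.2%. C8b was thus the scarcest of the C8 chains in both libraries, and the gap to the others was narrower in the library labelled knockout.

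Of 14 complement activation genes, 13 had lower levels in the library labelled knockout, with a median log2 ratio of -0.27. Of 12 markers of hepatocytes, the cells that make most of these genes, 9 were lower, with a median log2 ratio of -0.20. Hnf4a was at -0.51 and Cebpa at -0.30, while the 3 that were higher were Tat at 0.66, Apoa1 at 0.25 and Foxa2 at 0.18. None had 0 reads in either library. The part of hepatocyte number or state in the complement values was not tested. The direction of these 13 complement genes was the same under each scaling tried, though Cfb came to -0.00083 under total count. C3, the hub on which all routes meet, had 119764 reads in the library labelled knockout against 181792 in wild type. That is 6211 against 8025 CPM, 0.774-fold (0.768 to 0.780), and C3 alone took 0.639% of reads in genes in the library labelled knockout (0.636% to 0.643%) against 0.780% in wild type (0.776% to 0.783%). It was the most abundant member by CPM in both libraries. Of its partners in the alternative route, Cfb, the protease subunit that joins C3b, was near level at 1220 against 1293 CPM (0.944-fold, 0.928 to 0.960). Cfp, properdin, which steadies the C3 convertase, had 464 against 743 reads and was 0.734-fold (0.652 to 0.825).

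All 5 classical pathway members were lower. C4b, the C4 component cleaved by C1, had the lowest ratio of all members, with 21330 reads in the library labelled knockout against 34848 in wild type, 1106 against 1538 CPM and 0.719-fold (0.707 to 0.731). C4a is a close copy of it: of the 50-base stretches in C4b transcripts, 34.6% also occur in transcripts of C4a, so reads there had no unique place and single values of this pair are uncertain. C4a, counted apart, went the same way at 587 against 1071 reads (log2 ratio -0.63). C2, which forms the convertase with C4b, was at 111 against 119.5 CPM and 0.928-fold (0.876 to 0.982). C2 and Cfb lie close together and both share annotated exons with a gene named Gm20547, so their counts depend on how the annotation used for counting treated it.

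The 3 chains of C1q, the antibody sensor, were lower together. C1qa had 1078 reads in the library labelled knockout against 1564 in wild type (0.810-fold, 0.749 to 0.876). C1qb had 1222 against 1696 reads (0.846-fold, 0.786 to 0.912) and C1qc 1018 against 1589 (0.753-fold, 0.695 to 0.815). Their shares of C1q reads were alike in both libraries, with C1qa at 32.5% against 32.3%, C1qb at 36.8% against 35.0% and C1qc at 30.7% against 32.8%, and the intervals of each chain's shares overlapped. Of 13 markers of Kupffer cells and macrophages, 10 were lower and 3 higher, with a median log2 ratio of -0.32. The 13 summed to 681 CPM in the library labelled knockout against 785 in wild type. None was at 0 in either library. Marco was at -2.04 and Lyz2 at -1.05. The 3 that were higher were Slc40a1 at 0.40, Clec4f, an identifying gene of Kupffer cells, at 0.15, and Cd163 at 0.14. The part of macrophage number or state in the C1q and Cfp values was not tested.

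In the lectin pathway, the mannose-binding lectins that sense sugars went opposite ways. Mbl1 had 5871 reads in the library labelled Lrg1 knockout against 5568 in wild type, 304 against 246 CPM (1.24-fold, 1.19 to 1.29). Mbl2 had 4915 against 7758 reads, 255 against 342 CPM (0.744-fold, 0.718 to 0.771). Mbl1 thus had 1.19 reads for each read of Mbl2 in the library labelled knockout, against 0.718 in wild type, a change of 1.66-fold (1.58 to 1.75) that no scaling can alter. Per length, Mbl1 made up 45.3% of the transcripts of the pair against 33.2%, so Mbl2 was the more abundant per length in both libraries. No 50-base stretch of either occurs in transcripts of another gene. The proteases that these lectins carry differed less: Masp2, which cleaves C4 and C2, was 0.882-fold (0.852 to 0.914) and Masp1, which activates it, 0.892-fold (0.823 to 0.968).

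Both fluid-phase regulators were lower too. C4bp, which binds C4b and removes it from the convertase, was at 575 CPM in the library labelled knockout against 740.5 in wild type, 0.777-fold (0.759 to 0.796). Cfi, the protease that cuts C3b and C4b with such cofactors, was at 641 against 745 CPM, 0.860-fold (0.840 to 0.880). As a whole, complement activation took 1.13% of reads in genes in the library labelled knockout (1.12% to 1.13%) against 1.33% in wild type (1.32% to 1.33%). Terminal complement took 0.598% (0.594% to 0.601%) against 0.508% (0.505% to 0.510%). Both shares moved by more than counting error and in opposite directions.

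Clotting genes stood close to level. Of 21 members, 15 were lower and 6 higher in the library labelled Lrg1 knockout, and the median was -0.095. On the log2 scale 18 of the 21 lay within 0.2 of 0, as did 48.8% of all measured genes. Genes with few reads scatter more by counting alone, so this contrast also depends on the reads a gene had. Under total count scaling 12 were lower and 9 higher. The fibrinogen genes, which encode the chains of the clot protein, were the most abundant of the group. Fga was at 4954 CPM in the library labelled knockout against 5361 in wild type (0.924-fold, 0.916 to 0.932). Fgb was at 4272 against 4342 CPM (0.984-fold, 0.975 to 0.993), and Fgg at 3777 against 3567 (1.06-fold, 1.05 to 1.07). Fga and Fgg thus lay on different sides of level under TMM, and Fgb changed sides under total count.

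Together the fibrinogen chains took 1.34% of reads in genes in the library labelled knockout (1.33% to 1.34%) against 1.29% in wild type (1.28% to 1.29%). That share is on the scale of total count, and the direction turns under TMM, where the chains summed to 13004 CPM in the library labelled knockout against 13271 CPM in wild type. Per length, Fga made up 36.0% of fibrinogen transcripts in the library labelled knockout against 38.5%, Fgb 24.5% against 24.6%, and Fgg 39.5% against 36.9%. The number of reads of Fgg per read of Fga was 0.762 against 0.665, a change of 1.15-fold (1.13 to 1.16 by log odds). F13b, the carrier subunit of the factor that cross-links fibrin, was at 184 against 181 CPM, and its interval (0.972 to 1.06) included no difference.

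Among the procoagulant factors 6 of 7 were lower, with log2 ratios of -0.20 to -0.061. F5, the cofactor of factor Xa, had the lowest ratio, at 755 CPM in the library labelled Lrg1 knockout against 869 in wild type (0.869-fold, 0.851 to 0.888). F9, the protease of the intrinsic tenase, was at 319 against 364 CPM (0.876-fold, 0.847 to 0.906). F10, which makes thrombin, was at 368 against 399 CPM (0.922-fold), and F2, which is prothrombin, at 1834 against 1913 CPM (0.959-fold), a direction that turned under total count. F7, which starts clotting with tissue factor, had 1515 against 1903 reads, and its interval (0.874 to 1.001) included no difference.

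F8, the cofactor of F9, was the 1 procoagulant member that was higher, with 352 reads in the library labelled knockout against 338 in wild type, 18.3 against 14.9 CPM (1.22-fold, 1.05 to 1.42). F8 is made by sinusoidal endothelium, and markers of that endothelium were higher in 13 of 14 cases, with a median log2 ratio of 0.51 and a summed level of 571 CPM in the library labelled knockout against 405 in wild type. None of them was at 0, and the exception, Lyve1, was at -0.47. Of the other members from endothelium, Vwf, the platelet tether that carries factor VIII, had 81 against 107 reads (0.889-fold, 0.658 to 1.20). Thbd, thrombomodulin, which turns thrombin towards protein C, had 83 against 111 reads (0.878-fold, 0.653 to 1.18). Both intervals included no difference. The log2 ratios, -0.17 for Vwf and -0.18 for Thbd, lay below the sinusoidal marker median of 0.51, but no separate list covered endothelium of larger vessels. Platelet markers, another source of Vwf, summed to 49 against 89 reads, with Gp1ba at 0 in both libraries, Gp9, Gp1bb and Tubb1 at 0 in the library labelled knockout and Gp5 at 0 in wild type. The part of cell makeup in these values was not tested.

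**Figure D3:**
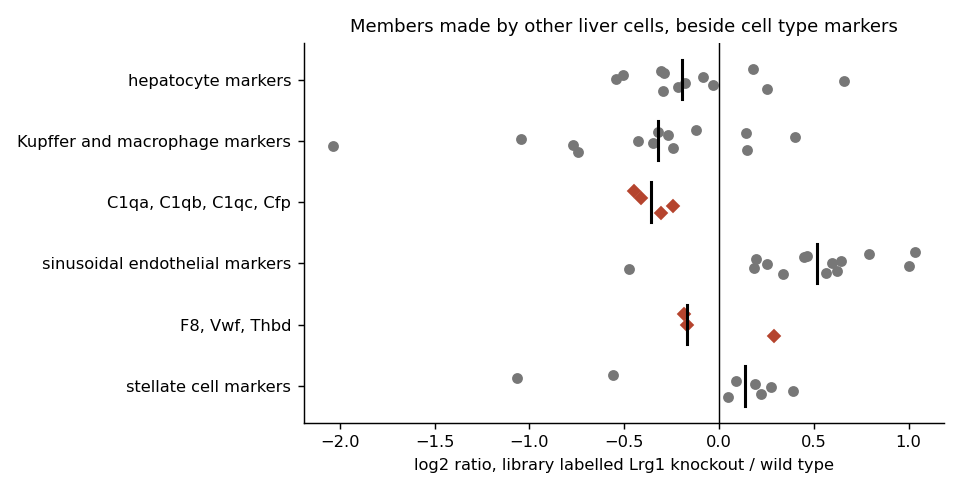
Log2 ratios (library labelled Lrg1 knockout over wild type) of measured cell type markers (grey circles) and of the 7 members that other liver cells are known to make (red diamonds), with the median of each row as a black bar. C1q chains and Cfp lie at or below -0.24 beside a median of -0.32 for Kupffer and macrophage markers. F8 at 0.29 lies on the side of the sinusoidal endothelial median of 0.51, while Vwf and Thbd do not.

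Anticoagulant genes went different ways. Proz, protein Z, which helps to inhibit factor Xa, had the lowest ratio among clotting genes, with 4673 reads in the library labelled Lrg1 knockout against 7275 in wild type, 242 against 321 CPM (0.755-fold, 0.727 to 0.783). Proc, protein C, which inactivates factors Va and VIIIa, was at 583 against 537.5 CPM (1.08-fold, 1.06 to 1.11). For each read of Proz there were 2.41 reads of Proc in the library labelled knockout against 1.67 in wild type, a change of 1.44-fold (1.37 to 1.504). Proz and Proc had the lowest and highest ratios of the 4 anticoagulants, so this change is the largest between any of them and adds no second measure. Pros1, protein S, the cofactor of protein C, had 1396 against 1579 reads and an interval (0.966 to 1.12) that included no difference.

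In the contact system, which starts clotting on charged surfaces and releases bradykinin, F12 was at 535 CPM in the library labelled knockout against 571 in wild type (0.936-fold, 0.912 to 0.961). Kng1, the kininogen that holds bradykinin, was at 1523 against 1674 CPM (0.910-fold, 0.896 to 0.924). Of its 50-base stretches 17.2% also occur in Kng2, so its level is uncertain, and Kng2 was at a log2 ratio of -0.085. Klkb1, which is plasma prekallikrein, was 1.06-fold (1.01 to 1.11), but it shares annotated exons with a gene named Gm45753 and its count is uncertain in the same way as those of C2 and Cfb. F11 had 1055 against 1292 reads with an interval (0.883 to 1.04) that included no difference. Of the fibrinolysis genes, Plg, the precursor of plasmin, was at 2566 against 2724 CPM (0.942-fold, 0.931 to 0.953). Cpb2, a carboxypeptidase that slows fibrinolysis, was at 254 against 282 CPM (0.900-fold, 0.867 to 0.934). In all, 6 members had intervals that included no difference, and they were clotting genes: F7, F11, F13b, Pros1, Thbd and Vwf. Of all measured genes, 51.4% had such intervals. These intervals narrow as reads rise, so how often they include no difference also depends on the reads a gene had.

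**Figure D4:**
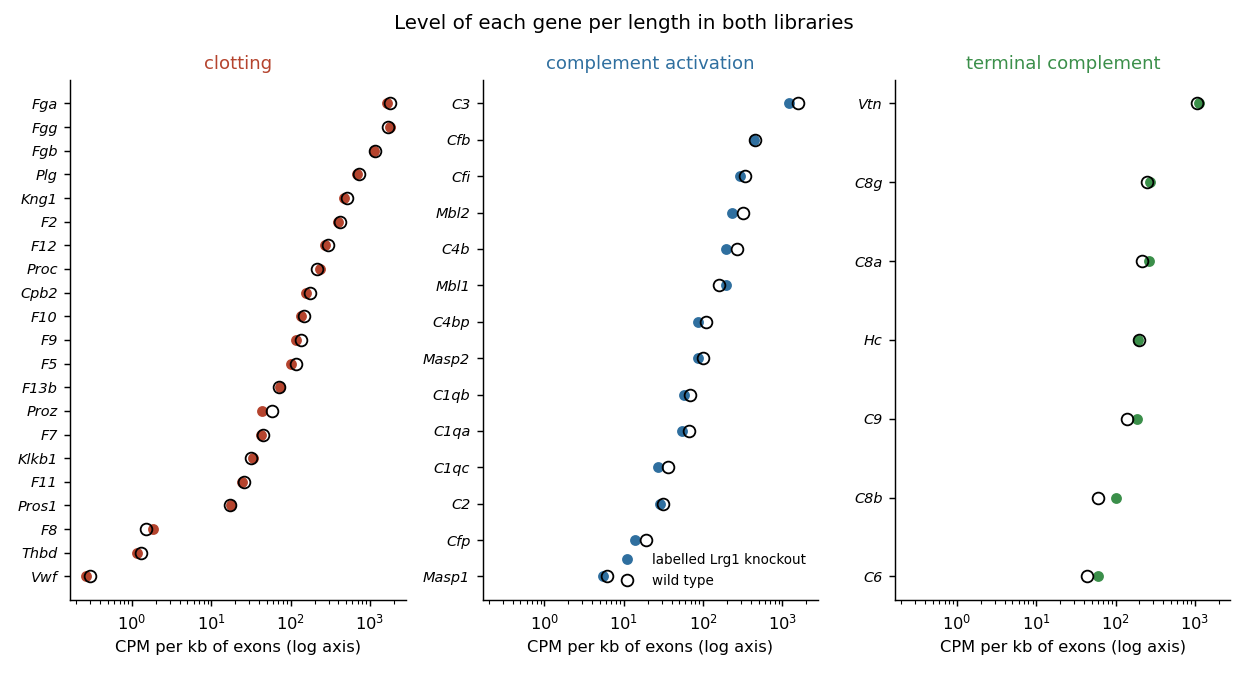
Level of each member per length, in CPM per kb of joined exons on a log axis, in the library labelled Lrg1 knockout (filled) and in wild type (open), 1 panel per group, ordered by the wild-type level. Fgg, Fga, C3, Vtn and Fgb are the highest in the library labelled knockout and Vwf is the lowest in both, and the horizontal gap between filled and open points is small beside the range of levels.

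Levels per length spanned a far wider range between members than between libraries. Fgg had 1805 CPM per kb of joined exons in the library labelled knockout against 1704 in wild type, Fga 1646 against 1781, and C3 1208 against 1560.4. Vtn had 1135 against 1066 and Fgb 1121 against 1140 CPM per kb. These 5 held the first 5 places in both libraries, with Fgg first in the library labelled knockout and Fga in wild type. At the other end, Vwf had 0.261 against 0.294, Thbd 1.16 against 1.32 and F8 1.84 against 1.51 CPM per kb, the genes of endothelium. Masp1 was the lowest hepatocyte member, at 5.50 against 6.16 CPM per kb, while Masp2 had 86.9 against 98.5. Of the membrane attack genes, C6 had the lowest level per length, 59.8 against 44.3 CPM per kb, and C8g had the highest, 269 against 247 CPM per kb.

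Several members are neighbours in the genome, and neighbours did not always have like ratios. Fgg, Fga and Fgb follow each other on chromosome 3 with 0 protein-coding genes between them, at log2 ratios of 0.082, -0.11 and -0.023. F7, F10 and Proz follow each other on chromosome 8, and Proz at -0.41 stood below F7 at -0.097 and F10 at -0.12. Per read of F10 there were 0.658 reads of Proz in the library labelled knockout against 0.804 in wild type (0.818-fold, 0.780 to 0.859). C8b and C8a are adjacent on chromosome 4 and both were higher, at 0.74 and 0.30, and reads of C8b per read of C8a were 1.35-fold higher (1.29 to 1.42). The 3 C1q genes, also adjacent on chromosome 4, lay between -0.41 and -0.24. F11 and Klkb1, adjacent on chromosome 8, were at -0.060 and 0.086.

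Other genes of these pathways were mostly lower or near level. Of 46 further pathway genes that were listed, 37 were measured. None of the 37 (0) reached 1.5-fold higher and 8 reached 1.5-fold lower, with a median log2 ratio of -0.13. The percentages of all measured genes for these thresholds stand above, at 5.89% and 6.91%. Of the 8, 3 were 2-fold lower or more. Cfd, the alternative pathway protease that cleaves factor B and is made mainly by fat cells, had 104 reads in the library labelled knockout against 711 in wild type (0.172-fold, 0.139 to 0.211). C3ar1, a receptor for the C3a fragment, had 76 against 182 reads (log2 ratio -1.02), and Cd59b, a membrane inhibitor of the attack complex, 23 against 58 (-1.08).

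The others past 1.5-fold were Itgam and Itgb2, the chains of the C3 fragment receptor of myeloid cells, at -0.88 and -0.71, C4a, and 2 genes on the clotting side. Ggcx, the carboxylase that modifies vitamin K-dependent factors, had 737 reads in the library labelled Lrg1 knockout against 1325 in wild type (0.653-fold, 0.596 to 0.716). Plat, tissue plasminogen activator, had 18 against 36 reads and an interval (0.314 to 1.06) that included no difference. Among the vitamin K-dependent members that Ggcx serves, F2, F7, F9, F10 and Proz were lower and Proc and Pros1 higher under TMM, though the intervals of F7 and Pros1 included no difference.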

How the data were processed

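For each library the authors deposited a table of raw counts (whole reads by gene symbol, not normalized), which was the starting point. Per the submitters' processing notes, bcl2fastq, TopHat2 and HTSeq were used with the genome build mm9; which versions, annotation and strand setting applied is not stated in those notes. Per the labels' protocols, libraries were poly(A)-selected, stranded and read from 1 end. Lines that name no gene were left out of library sizes: 14.4% of unique reads lay outside genes in the library labelled knockout and 14.0% in wild type. Only unique alignments reached genes, which makes near-identical genes uncertain.

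Counts were scaled with TMM in edgeR 4.0.16 under R 4.3.3 (factors 1.03 for the library labelled knockout and 0.972 for wild type). Log2 ratios used a prior count of 0.5, and a gene was measured with at least 50 reads over both libraries. Ratios have exact Clopper-Pearson intervals given the sum of both counts; folds and ratios are the library labelled knockout over wild type, computed here. A ratio of 2 genes within libraries has an exact conditional interval, or a log odds interval where a count reached 30000. Exon lengths, gene order and 50-base stretches came from GENCODE M21 on GRCm38; since the counts rest on mm9, coordinates are given for the RefSeq promoters only. DESeq2 1.42.0 gave alternative size factors. Other steps ran in Python 3.11.15 (scipy 1.17.1, numpy 2.4.6, matplotlib 3.10.9, pandas 2.3.3). The steps were tested on simulated data.

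Members and lists were chosen with earlier results of these data known. All members are accounted for; other pathway genes are named past 1.5-fold, at most 4 in each direction and group, and C4a and Kng2 as copies of members. Lectin genes in the closing section were named outside this rule, after their values were seen. C7 was not analysed here. Alternatives were other scalings, minimum sums of 200 reads or 1 read, a prior count of 2, thinning of the deeper library, thresholds of 1.5-fold and 3-fold, means, and the longest transcript as length.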

Additional observations from a re-analysis of the deposited data

Results flagged for a closer look

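Both tables list many alignments that reached no gene and enter no comparison, far more than the 3 counts taken as the limit of a count of 0. Of all lines counted, alignments to several places were 58.0% for the library labelled knockout and 50.3% for wild type, and 1 read can give several such lines. Unique reads outside genes made up 14.4% against 14.0% of unique reads, and reads shared by overlapping genes 0.234% against 0.231%. Of the members, C4b and Kng1 have the largest parts of their transcripts repeated in another gene, 34.6% and 17.2%. How many of these lines came from members was not tested.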

How the results depend on the processing

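The 5 group results were recomputed under 7 alternatives of scaling, prior count, filter and depth. The counts of members 2-fold higher and lower were 0 and 0 under all of these and at a threshold of 3-fold, while a threshold of 1.5-fold gave 1 higher member. The median log2 ratio of clotting members, -0.095, was -0.012 with total count scaling and -0.036 when the 20 most abundant genes were also left out of the total. That of terminal members, 0.30, was 0.39 and 0.36. That of complement activation members, -0.27, was -0.19 and -0.21, the same shift, and 9 of its 14 members moved beyond their counting intervals under total count. No group median changed sign. Single members moved beyond their counting intervals in 31 of 42 cases under the first of these and 26 under the second, in which 4 and 2 members changed sign, and in 0 under the other alternatives. From 200 reads, Thbd and Vwf dropped out and 40 members were left. The median level per length in the library labelled knockout was 126 CPM per kb of joined exons and 148 per kb of the longest transcript. No paired analysis was possible because each group has 1 library. Depth limits Vwf, Thbd and F8, with 81 to 352 reads a library.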

Other observations

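The other sugar-sensing genes of the lectin pathway, named after their values were seen, had higher levels in the library labelled knockout, as Mbl1 did. Colec11, a collectin, had 1001 reads in the library labelled knockout against 874 in wild type (1.35-fold, 1.23 to 1.47). Fcna, a ficolin, had 855 against 761 reads (1.32-fold, 1.20 to 1.46), and Colec10, a collectin of liver, 686 against 658 (1.22-fold, 1.10 to 1.37). Mbl2 was the 1 lectin of the pathway that was lower; Fcnb had 0 reads in both libraries.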
